A study of Homo sapiens with 14 samples.

Results

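The genes described here are 10 of the 60624 Ensembl genes listed for each library: the FGF receptors FGFR1, FGFR2, FGFR3 and FGFR4, the EGF receptor family members EGFR, ERBB2 and ERBB3, and the feedback genes SPRY2, SPRY4 and DUSP6. They were taken by name, with earlier results of these data known, and the identifiers of all 10 were found. FGF and EGF bind receptor tyrosine kinases at the cell surface, which signal through RAS, RAF and MEK to the ERK kinases. ERK signaling switches on genes that damp it: Sprouty proteins act on the route from receptor to RAS and RAF, and DUSP6 is a cytoplasmic phosphatase that removes the activating phosphates from ERK. In the embryonic pancreas, FGF10 from the mesenchyme signals through FGFR2 to keep the epithelial progenitors dividing, and both growth factors are used to grow pancreatic progenitors in culture.

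RNA-seq was carried out on 14 libraries in 9 groups, all from the human embryonic stem cell line MEL1, which carries a GFP reporter in the insulin gene. Batch 1, as the labels name it, held undifferentiated cells (hPSC), definitive endoderm (DE), pancreatic progenitors (PP2) and β-like cells made from them (SC-β), with 1 library each and hence no replicate. Batch 2 held expandable pancreatic progenitors (ePP) at passages 9 (ePP-P9) and 21 (ePP-P21) and β-like cells derived from ePP (ePP-β), with 2 libraries each, and batch 3 held progenitors given DMSO or I-BET151 (1 μM), which blocks the BET family of chromatin readers, for 7 days, again with 2 libraries each. Replicates were labelled only by number, so p-values measure the spread between these libraries, which may be technical.

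The groups differed in the growth factors of their last medium. The hPSCs received bFGF at 10 ng/ml on mouse feeder cells, and the last medium of PP2 held EGF and KGF (FGF7) at 50 ng/ml each. The ePP lines grew on feeder cells in EGF at 50 ng/ml, bFGF at 10 ng/ml, the TGF-β receptor inhibitor 616452 and I-BET151. The DMSO and I-BET151 groups had the same EGF, bFGF and 616452 and differed from each other in I-BET151. The late media of SC-β and ePP-β held none of EGF, bFGF or KGF. The harvest day of DE, and so its last medium, was not given in the sources used here, and DE was therefore placed in neither medium class.

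Labels were checked against marker genes. POU5F1, a pluripotency factor, was at 3401 TPM in hPSC, SOX17, an endoderm factor, at 1140 TPM in DE, and PDX1, a pancreatic factor, between 53.8 and 251 TPM in every library from PP2 onward. INS reached 10920 TPM or more in the 3 β-like libraries and at most 3.03 TPM elsewhere. Not all markers were highest at their own stage. LIN28A, of the pluripotency list, was at 625 TPM in DE and 460 TPM in hPSC. HHEX and FOXA2, of the endoderm list, were at 476 and 201 TPM in PP2 and 132 and 82.4 TPM in DE. CXCR4 of that list was at 105 TPM in DE and 146.5 and 226 TPM in ePP-β. NKX6-1, a pancreatic progenitor marker, was at 23.5 TPM in PP2 and 51.5 to 446 TPM in SC-β and batches 2 and 3. The sum of 9 fibroblast or mesenchyme markers was 1533 TPM in PP2 and 2710 TPM in SC-β, against 42.8 to 199 TPM in the 10 libraries of batches 2 and 3. Listed TPM, a level scaled for transcript length and library total, summed to 908685 to 985497 per library, and read depth is unknown.

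Promoter sequences are shown for 3 of the 10 genes. SPRY2 and DUSP6 had the largest falls of all 10 genes in ePP-β. FGFR3 was the only member called between ePP passages in the main fit, a call lost in some other settings. Each sequence is the 250 bases before a RefSeq gene start (GRCh38.p14), 5′ to 3′ on the strand of the gene. Capitals mark matches on either strand to the ETS core CCGGAA, the AP-1 site TGANTCA, the cyclic AMP element TGACGTCA, the GC box GGGCGG or the CArG box.
SPRY2, chr13:80341127-80341376, minus strand: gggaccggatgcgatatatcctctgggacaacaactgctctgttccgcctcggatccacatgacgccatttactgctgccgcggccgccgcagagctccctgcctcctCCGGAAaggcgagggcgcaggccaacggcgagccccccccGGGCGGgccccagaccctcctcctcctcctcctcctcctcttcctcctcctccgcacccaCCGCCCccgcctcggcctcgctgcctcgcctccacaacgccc
DUSP6, chr12:89352502-89352751, minus strand: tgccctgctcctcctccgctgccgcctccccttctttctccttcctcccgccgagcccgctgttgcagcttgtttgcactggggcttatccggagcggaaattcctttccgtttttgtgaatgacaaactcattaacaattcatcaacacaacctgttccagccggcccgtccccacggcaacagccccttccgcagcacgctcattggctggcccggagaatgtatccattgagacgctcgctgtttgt
FGFR3, chr4:1793043-1793292, plus strand: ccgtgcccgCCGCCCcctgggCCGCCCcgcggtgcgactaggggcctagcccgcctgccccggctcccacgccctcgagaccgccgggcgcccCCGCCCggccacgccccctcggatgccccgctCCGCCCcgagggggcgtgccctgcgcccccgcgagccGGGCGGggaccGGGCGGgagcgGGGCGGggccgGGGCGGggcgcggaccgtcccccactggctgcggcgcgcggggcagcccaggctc
The SPRY2 window shown held 1 ETS core match, starting 142 bases before that gene start, and 2 GC boxes. SPRY2 also had RefSeq windows at chr13:80340109-80340358 and chr13:80339660-80339909, not shown, and these held none of the 5 motifs. The FGFR3 window held 8 GC boxes and no other match, and none of the 5 motifs was found in the DUSP6 window. Of 35116 RefSeq windows of this length, 14.5% held an ETS core match, 42.6% a GC box, 6.57% an AP-1 match, 1.65% a cyclic AMP element and 1.16% a CArG box. The DUSP6 window lay wholly in exons of a noncoding gene on the other strand, whereas the other windows shown lay outside annotated exons. A match in letters is a description and not evidence of binding.

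The feedback genes were high in growth factor cultures and low in β-like cells. For SPRY2 the ePP-P9 libraries had 239 and 257 TPM, those of ePP-P21 had 182 and 251 TPM, and ePP-β had 20.9 and 24.5 TPM. In batch 3 it was at 147 and 136 TPM with DMSO and 252 and 215 TPM with I-BET151. Batch 1 gave 52.0 TPM in hPSC, 43.97 TPM in DE, 101 TPM in PP2 and 4.75 TPM in SC-β. The 3 β-like libraries were thus the lowest of the 14, and ePP-P9, ePP-P21 and I-BET151 overlapped at the top.

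DUSP6 followed the same order of groups. At passage 9 of ePP it was at 245 and 264 TPM, at passage 21 at 191 and 275 TPM, and ePP-β held 11.3 and 15.6 TPM. It was 157 and 108 TPM with DMSO and 305 and 197 TPM with I-BET151. In batch 1 it was at 32.9 TPM in hPSC, 17.0 TPM in DE, 81.8 TPM in PP2 and 4.5 TPM in SC-β. Over the 9 group means, SPRY2 and DUSP6 correlated with r = 0.976 and rank in the same order (rho = 1.0), a description over groups that share batches and, in part, media. DUSP6 overlaps the noncoding gene ENSG00000274021 on the other strand, at 1.04 to 56.2 TPM, and the library kit does not mark strand, so reads in the overlap cannot be assigned with certainty.

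SPRY4 had another order, with its highest level in undifferentiated cells. It was at 75.8 TPM in hPSC, 34.6 TPM in DE and 32.3 TPM in PP2, and at 1.02 TPM in SC-β. ePP-P9 gave 23.4 and 23.2 TPM, ePP-P21 gave 17.2 and 23.9 TPM, and ePP-β gave 2.61 and 2.49 TPM. The DMSO libraries stood at 34.8 and 11.0 TPM and the I-BET151 libraries at 24.3 and 9.24 TPM. Replicates of batch 3 differed 3.16-fold with DMSO and 2.63-fold with I-BET151, and ePP-P9, ePP-P21, DMSO and I-BET151 overlapped. Its correlation with SPRY2 over the 9 group means was r = 0.651 (rho = 0.183).

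**Figure D1:**
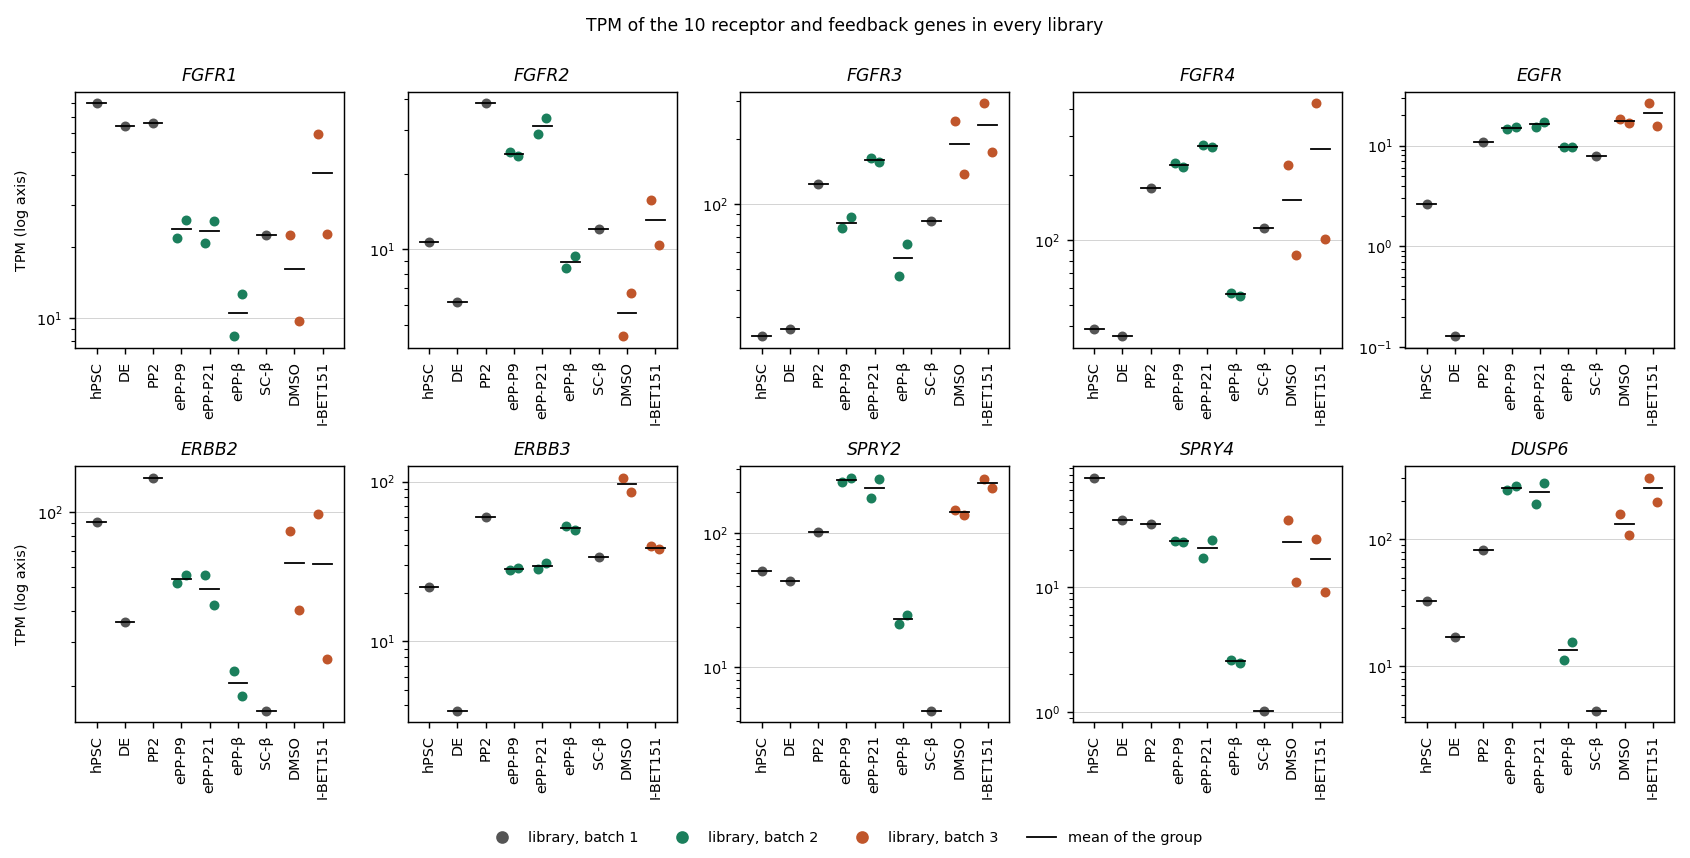
TPM (log axis, a different range in each panel) of the 10 genes in each of 14 libraries, by group, with the batch in color and a bar at the group mean. SPRY2, SPRY4 and DUSP6 are lowest in ePP-β and SC-β, FGFR1 and SPRY4 are highest in hPSC, and batch 3 replicates lie far apart for FGFR1, FGFR4, ERBB2 and SPRY4.

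FGFR4 and FGFR3 made up most of the summed FGF receptor TPM in pancreatic cells, and FGFR1 led in the early stages. FGFR1 was at 80.0 TPM in hPSC, 64.3 TPM in DE and 66.2 TPM in PP2, and was the highest FGF receptor in the first 2 of these. Passage 9 of ePP gave 21.9 and 25.8 TPM, passage 21 gave 20.7 and 25.7 TPM, ePP-β gave 8.40 and 12.7 TPM, and SC-β gave 22.4 TPM. With DMSO it was at 22.4 and 9.79 TPM and with I-BET151 at 59.4 and 22.6 TPM. The hPSC, DE and PP2 libraries stood above all others, and the remaining groups overlapped their neighbors.

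FGFR2, whose epithelial isoform is the receptor for FGF7 and FGF10, was highest in PP2. There it was at 38.4 TPM, against 10.7 TPM in hPSC, 6.16 TPM in DE and 12.0 TPM in SC-β. The ePP libraries gave 24.4 and 23.6 TPM at passage 9 and 28.9 and 33.4 TPM at passage 21, and ePP-β gave 8.41 and 9.41 TPM. Both DMSO libraries were low, at 4.49 and 6.68 TPM and overlapping DE, and it was at 15.8 and 10.4 TPM with I-BET151. Gene-level values do not separate the isoforms.

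FGFR3 was low in the early stages. It was at 24.3 TPM in hPSC and 26.2 TPM in DE, 124 TPM in PP2 and 83.4 TPM in SC-β. The ePP-P9 libraries were at 77.2 and 86.9 TPM and the ePP-P21 libraries at 163 and 157 TPM, and ePP-β was at 46.4 and 65.5 TPM. The highest values were in batch 3, at 242 and 138 TPM with DMSO and 294 and 174 TPM with I-BET151. The DMSO libraries overlapped those of I-BET151 and those of ePP-P21.

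FGFR4, the receptor that together with the coreceptor KLB binds FGF19, was the highest FGF receptor in PP2 and in each ePP library. It was at 38.9 TPM in hPSC, 35.8 TPM in DE, 174 TPM in PP2 and 113 TPM in SC-β. The ePP-P9 libraries gave 225 and 217 TPM, the ePP-P21 libraries 273 and 269 TPM, and the ePP-β libraries 56.8 and 55.0 TPM. With DMSO it was at 221 and 85.4 TPM, and with I-BET151 at 427 and 101 TPM. These batch 3 replicates differed 2.59-fold and 4.24-fold, so that both groups overlapped PP2 and each other. FGFR4 accounted for 55.4% to 64.6% of the summed FGF receptor TPM in the 4 ePP libraries, and FGFR3 for 49.4% to 57.6% in the 2 DMSO libraries.

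EGFR, the receptor of EGF itself, was lower than ERBB2 and ERBB3 in each of the 14 libraries. It was at 2.64 TPM in hPSC, 0.128 TPM in DE, 10.9 TPM in PP2 and 7.83 TPM in SC-β. ePP-P9 gave 14.6 and 15.4 TPM, ePP-P21 15.3 and 17.1 TPM and ePP-β 9.60 and 9.72 TPM, while DMSO gave 18.5 and 16.6 TPM and I-BET151 26.2 and 15.7 TPM. The 4 ePP and 4 batch 3 libraries overlapped. The antisense gene EGFR-AS1 was at up to 5.51 TPM.

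ERBB2, which has no ligand of its own and pairs with the other family members, was the highest family member in hPSC, DE, PP2 and ePP. It was at 91.6 TPM in hPSC, 36.2 TPM in DE, 138 TPM in PP2 and 15.8 TPM in SC-β. The ePP libraries gave 52.0 and 56.0 TPM at passage 9 and 55.7 and 42.1 TPM at passage 21, and the ePP-β libraries 22.8 and 18.2 TPM. Batch 3 gave 84.1 and 40.3 TPM with DMSO and 98.2 and 25.5 TPM with I-BET151, a 2.09-fold and a 3.85-fold spread between replicates. ERBB2 shares bases with MIEN1 and PGAP3 on the other strand, at 29.3 to 120 TPM and 8.38 to 35.0 TPM, so its own values carry some uncertainty.

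ERBB3, a neuregulin receptor with weak kinase activity, was the highest of the 3 family members in the β-like libraries, both DMSO libraries and I-BET151 replicate 2. It accounted for 58.8% to 64.2% of their summed TPM in the 3 β-like libraries, 50.8% and 60.2% with DMSO and 47.9% in that I-BET151 library. Its level was 22.0 TPM in hPSC, 3.69 TPM in DE, 60.2 TPM in PP2 and 33.7 TPM in SC-β. The ePP libraries gave 28.1 and 28.7 TPM at passage 9, 28.3 and 31.2 TPM at passage 21, and ePP-β gave 53.0 and 50.1 TPM. DMSO stood highest, at 106 and 86.1 TPM, and I-BET151 at 39.6 and 37.8 TPM. An unnamed protein-coding gene, ENSG00000257411, overlaps ERBB3 on the same strand at 84.0 to 270 TPM, and how reads were divided between them is not known. ERBB4, the remaining receptor of the family, did not exceed 0.730 TPM in any library.

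To relate feedback genes to growth factor culture, the 10 libraries with EGF, bFGF or KGF in the last medium were set beside the 3 β-like libraries without them. SPRY2 was at 52.0 to 257 TPM (median 198) with growth factors and 4.75 to 24.5 TPM without. DUSP6 was at 32.9 to 305 TPM (median 194) against 4.5 to 15.6 TPM, and SPRY4 at 9.24 to 75.8 TPM (median 23.7) against 1.02 to 2.61 TPM. All 3 feedback genes, and ERBB2 among the receptors, had every growth factor library above every β-like library, and the other 6 members overlapped. DE, in neither class, lay within the growth factor range for SPRY4 (34.6 TPM) and ERBB2 (36.2 TPM). For SPRY2 (43.97 TPM) and DUSP6 (17.0 TPM) it lay between the classes, so the separation is stated without DE only.

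Such a separation held for 3.89% of 20228 genes at 1 TPM or more in at least 2 of the 13 libraries, and the opposite separation for 7.43%. None of the 10 members had it in the opposite direction. The separation was present within batches, since PP2 lay above SC-β in batch 1 and all ePP libraries lay above ePP-β in batch 2. The medium and the cell stage changed together in both, however, and cannot be told apart. In bulk RNA, fewer cells that express a gene and less RNA per cell cannot be told apart either.

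**Figure D2:**
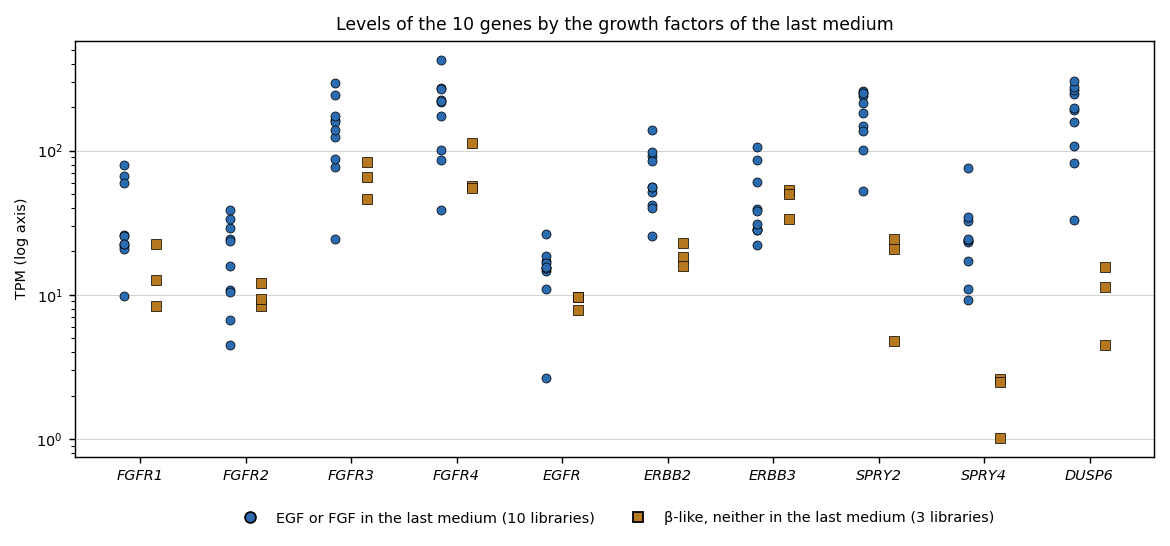
TPM (log axis) of the 10 genes in 10 libraries with EGF or an FGF in the last medium (circles) and 3 β-like libraries without (squares), DE left out. Circles and squares do not overlap for ERBB2, SPRY2, SPRY4 and DUSP6, with SPRY2 at 52.0 TPM or more against 24.5 TPM or less.

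The other feedback inhibitors were compared in the same way. Of 20 such genes, SPRY1 (11.3 to 46.3 against 2.00 to 6.00 TPM), SPRED1 (8.53 to 20.0 against 2.80 to 6.80 TPM) and SPRED2 (13.5 to 38.4 against 6.90 to 8.47 TPM), all inhibitors of the RAS to RAF step, had every growth factor library above every β-like library. Among 15 ERK-induced transcription factors and targets that reached 1 TPM, ETV4, ETV5, FOS, EGR1 and IER2 did so. EGR1, an immediate early factor, was at 11.5 to 52.1 TPM with growth factors and 0.390 to 1.60 TPM without. ETV4, an ETS factor downstream of FGF, was at 32.3 to 252 TPM against 2.68 to 14.4 TPM. Of 18 adaptors and kinases of the cascade, 2 were separated in this direction, among them the adaptor gene GAB1, and 16 overlapped. Of the 20228 genes counted above, 3.89% were separated in this direction and 7.43% in the other.

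The comparison of ePP-β with ePP asked how these genes changed as expanded progenitors became β-like cells. All 10 members passed the test, 9 lower and ERBB3 higher, where 57.4% of 18076 tested genes passed, 28.2% lower and 29.2% higher. With a log2 fold change beyond 1 as well, a limit the study also used, 8 of 10 passed, all lower, against 27.8% of all tested genes (9.86% lower). Fold changes are on the log2(TPM + 1) scale, which understates those of low genes, and came from limma with Benjamini-Hochberg adjusted p-values.

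DUSP6 fell from 244 TPM (mean of the passage means) to 13.4 TPM, a log2 fold change of -4.09 ± 0.18 (SE, adjusted p = 2.22e-05). SPRY2 fell by 3.29 ± 0.14 on the log2 scale (adjusted p = 2.13e-05) and SPRY4 by 2.68 ± 0.16 (adjusted p = 5.79e-05). On this scale the 3 feedback genes were thus 17.0-fold, 9.78-fold and 6.42-fold lower. The noncoding gene opposite DUSP6 was lower as well, with a log2 fold change of -3.44 ± 0.40 (adjusted p = 0.000737).

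Among the receptors the largest fall was that of FGFR4, by 2.11 ± 0.06 on the log2 scale (adjusted p = 6.28e-06). FGFR2 fell by 1.52 ± 0.11 (adjusted p = 0.000118), ERBB2 by 1.29 ± 0.15 (adjusted p = 0.000715), FGFR1 by 1.10 ± 0.19 (adjusted p = 0.00371) and FGFR3 by 1.04 ± 0.14 (adjusted p = 0.00147). EGFR fell least, by 0.64 ± 0.11 (adjusted p = 0.0039). ERBB3 rose by 0.81 ± 0.08 on the log2 scale (adjusted p = 0.000473), while the gene that overlaps it fell by 0.97 ± 0.07 (adjusted p = 9.21e-05) and MIEN1, which overlaps ERBB2, rose by 0.64 ± 0.12 (adjusted p = 0.00456).

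The ePP-β and ePP groups did not overlap for any of the 10 genes, where 31.6% of tested genes lay wholly lower and 32.2% wholly higher in ePP-β. All 10 also had an unadjusted p under 0.05, as did 62.2% of tested genes. The calls for FGFR1 and ERBB2 were lost when all 10 replicated libraries were fitted together (adjusted p = 0.0822 and 0.0819). The fall of FGFR3 was -0.56 on the log2 scale against ePP-P9 alone and -1.52 against ePP-P21 alone, references chosen after the data were seen. Beside these results, the sum of 9 fibroblast or mesenchyme markers was 46.5 to 72.0 TPM in ePP and 43.9 to 56.4 TPM in ePP-β, and that of 5 liver or gut epithelium markers 252 to 270 TPM in ePP and 1732 to 1851 TPM in ePP-β. Ribosomal protein genes took 19.8% to 23.3% and 14.9% to 16.0% of listed TPM, and I-BET151 was in the ePP medium. Their part in the result was not tested.

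**Figure D3:**
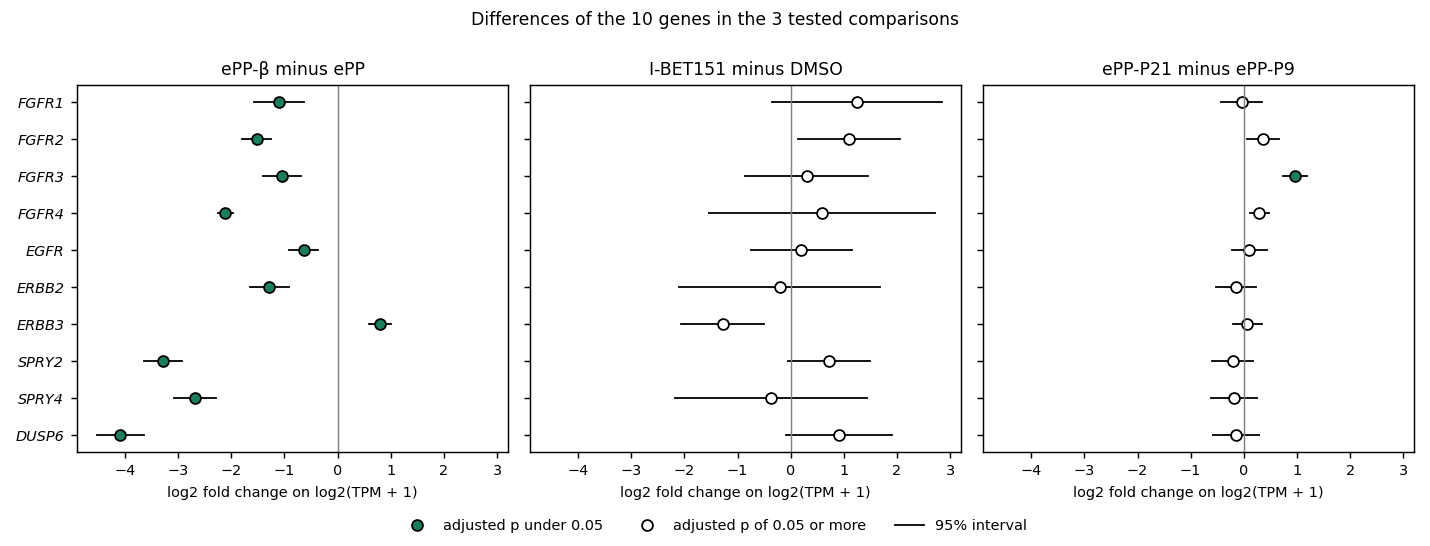
Log2 fold change on log2(TPM + 1) (x axis) of the 10 genes in the 3 tested comparisons, with 95% intervals from the limma fit; filled points passed an adjusted p of 0.05. All 10 points are filled for ePP-β minus ePP, none for I-BET151 minus DMSO, and only FGFR3 for ePP-P21 minus ePP-P9.

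Batch 1 allowed the same step to be described without replicates. From PP2 to SC-β, SPRY2 went from 101 to 4.75 TPM, SPRY4 from 32.3 to 1.02 TPM and DUSP6 from 81.8 to 4.5 TPM. The differences on the log2 scale were -4.15, -4.04 and -3.91, against SDs on the same scale, pooled over the replicated groups, of 0.18, 0.66 and 0.34. ERBB2 was lower by 3.04 on the log2 scale, FGFR2 by 1.60 and FGFR1 by 1.52. ERBB3 was lower too, by 0.82, the opposite direction to that from ePP to ePP-β. PP2 and SC-β were also the libraries with the highest fibroblast or mesenchyme marker sums, and the part of these cells was not tested.

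Ligands of both receptor families moved in either direction between ePP and ePP-β. Beside the list counts that follow, 57.4% of all tested genes passed, 28.2% lower and 29.2% higher. Of 15 FGF family genes, which form the list named FGF ligands, 7 passed the filter on low values. Among these 7, 4 were lower, 1 higher and 2 did not pass the test (median log2 fold change -0.69, against -0.03 for all tested genes). FGF18, an FGF8 family ligand, was at 65.8 to 88.9 TPM in ePP and 18.3 and 29.0 TPM in ePP-β (log2 fold change -1.67, adjusted p = 0.000498). FGF2, the bFGF also supplied in the medium, went from a mean of 5.95 to 2.11 TPM (adjusted p = 0.00536), a call lost with all 10 libraries in 1 fit (adjusted p = 0.0693). Chosen after their values were seen, since they were low, the remaining calls were FGF13 (2.42 to 0.47 TPM) and FGF22 (0.768 to 0.0751 TPM), both lower, and FGF19 (0.0162 to 1.68 TPM), higher, as means of ePP and ePP-β.

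Of 11 EGF family ligands, 7 passed the filter, with 3 higher, 3 lower and 1 not passing (median log2 fold change 0.26). Among all tested genes 29.2% were higher and 28.2% lower. AREG, amphiregulin, was at 2.89 to 10.9 TPM in the 4 ePP libraries and 88.5 and 101 TPM in ePP-β (log2 fold change 3.78, adjusted p = 7.41e-06). HBEGF, a ligand of EGFR, fell from 7.61 to 2.50 TPM (adjusted p = 0.00179), and NRG3, a neuregulin, from 5.08 to 2.47 TPM (adjusted p = 0.0167), a call lost without ePP-β replicate 2 (adjusted p = 0.0999) and in 3 of 12 other fits (adjusted p up to 0.287). The remaining calls, named after their values were seen, were BTC (0.053 to 1.06 TPM) and NRG4 (0.47 to 3.29 TPM), higher, and TGFA (3.28 to 1.5 TPM), lower.

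Among 8 other receptors and coreceptors, 6 were tested and all passed, 2 higher and 4 lower (median log2 fold change -0.93). The share of all tested genes that passed was 57.4%, with 29.2% higher and 28.2% lower. FGFRL1, an FGF receptor that lacks a kinase domain, fell by 1.76 ± 0.08 on the log2 scale (adjusted p = 2.52e-05), from 59.9 to 66.6 TPM in ePP to 19.2 and 17.4 TPM. The heparan sulfate proteoglycans GPC3, SDC1 and SDC4 fell by 1.46, 1.42 and 0.44 (adjusted p = 2.69e-05, 0.000174 and 0.00274), SDC4 not when all 10 replicated libraries were fitted (adjusted p = 0.0832). KL, the FGF23 coreceptor klotho, was at 0.0 to 0.0967 TPM in ePP and 9.13 and 12.0 TPM in ePP-β (adjusted p = 2.79e-05), and at 6.05 TPM in SC-β. GPC4, a further heparan sulfate proteoglycan that was named after its value was seen, rose from 0.752 to 3.79 TPM (adjusted p = 0.000561).

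Of the 18 adaptors and cascade kinases, 4 were higher, 4 lower and 10 did not pass (median log2 fold change 0.04). By comparison, 57.4% of all tested genes passed. MAPK3, which encodes ERK1, was at 9.18 to 10.8 TPM in ePP and 119 and 108 TPM in ePP-β (log2 fold change 3.41 ± 0.10, adjusted p = 7.59e-06). Across the series it was at 9.18 to 16.0 TPM in the 6 libraries cultured with I-BET151 and at 39.0 to 144 TPM in the other 8. This split was chosen after the values were seen, crosses batches and stages, and was not tested. NRAS was higher by 0.85 (adjusted p = 0.000774) and SOS2, named after its value was seen and with groups that overlapped, by 0.46 (adjusted p = 0.0449). The kinase genes ARAF and MAP2K2 fell by 1.13 and 0.40 (adjusted p = 0.000125 and 0.00272), and the adaptor gene GAB1 by 0.78 (adjusted p = 0.0322). MAP2K2 was not called with all 10 replicated libraries (adjusted p = 0.461), nor GAB1 when any 1 of ePP-P9 replicate 1, ePP-P9 replicate 2, ePP-P21 replicate 2 or ePP-β replicate 1 was left out (adjusted p up to 0.165) and in 3 of 12 other fits.

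Of the 20 other feedback inhibitors, 18 were tested, 6 fell, 5 rose and 7 did not pass (median log2 fold change -0.29). These counts lie near the shares of all tested genes, of which 28.2% fell and 29.2% rose. SPRY1 fell by 2.45 ± 0.19 on the log2 scale (adjusted p = 0.000136), from 20.6 to 46.3 TPM in ePP to 6.00 and 4.46 TPM. DUSP9 and DUSP5, further MAP kinase phosphatases, fell by 1.48 and 1.40 (adjusted p = 6.82e-05 and 6.31e-05), and SPRED2 by 0.84 (adjusted p = 0.00178). DUSP4, a nuclear phosphatase, rose by 0.91 (adjusted p = 0.00123), from 8.95 to 10.8 TPM to 19.3 and 18.3 TPM. NF1 and SOCS5 were higher by 0.53 and 0.41 (adjusted p = 0.0401 and 0.0207). These calls were lost without either ePP-P9 library or either ePP-β library, and that for NF1 also without ePP-P21 replicate 2 (adjusted p up to 0.165 and 0.0897). In 12 other fits NF1 was not called in 7 and SOCS5 in 3. The other 2 that rose, named after their values were seen, were SPRED3 (0.659 to 3.55 TPM) and LRIG3 (29.4 to 36.9 TPM), the latter with groups that overlapped.

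Of 16 ERK-induced transcription factors and targets, 15 were tested, 9 fell, 3 rose and 3 did not pass (median log2 fold change -1.06). Over all tested genes 28.2% fell and 29.2% rose. EGR1 fell by 3.92 ± 0.41 (adjusted p = 0.000469), from 11.9 to 36.5 TPM to 0.483 and 0.390 TPM. MYC fell by 2.85 ± 0.16 (adjusted p = 4.73e-05), from 102 to 152 TPM to 17.6 and 18.0 TPM, and IER2, an immediate early gene, by 1.88 ± 0.19 (adjusted p = 0.000388).

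FOS fell by 4.74 ± 1.15 (adjusted p = 0.0139), but its 2 ePP-P21 libraries stood at 13.99 and 344 TPM. Its log2 fold change was -5.87 without the lower of these and -3.61 without the higher, and with no filter it was not called (adjusted p = 0.0848). ETV1, an ETS factor, rose instead, from 0.696 to 5.02 TPM in ePP to 27.1 and 24.2 TPM (log2 fold change 2.82, adjusted p = 0.000683). PHLDA1, named after its value was seen, was higher by 0.46 (adjusted p = 0.0492) with groups that overlapped. JUN was higher by 0.81 (adjusted p = 0.04), a call lost without either ePP-P9 or either ePP-β library (adjusted p up to 0.165) and in 6 of 12 other fits.

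**Figure D4:**
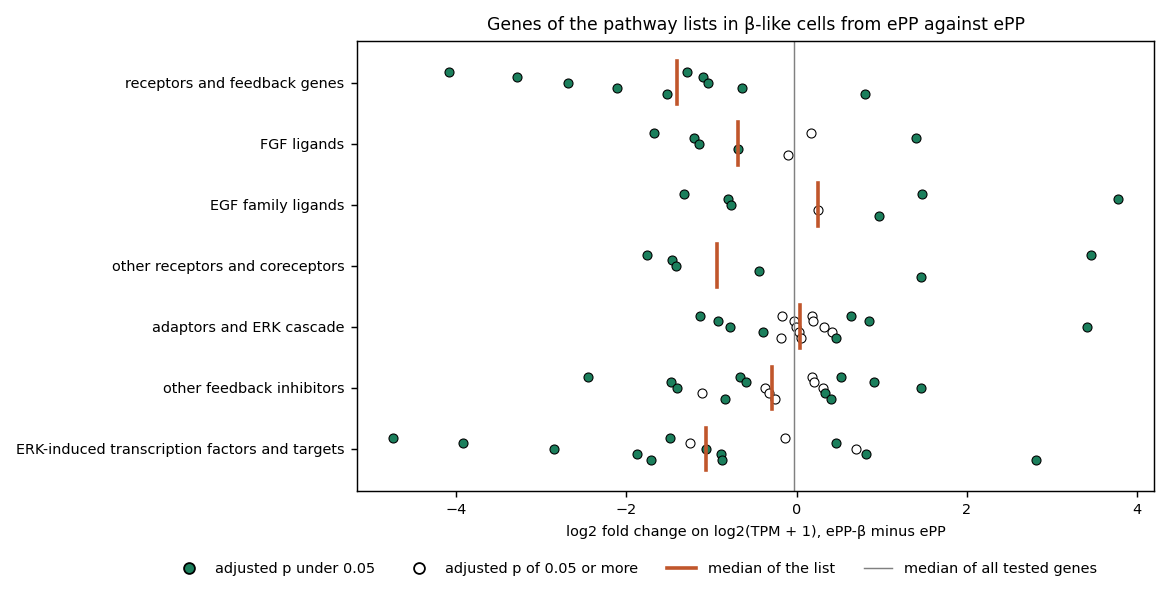
Log2 fold change on log2(TPM + 1), ePP-β minus ePP, of every tested gene of the receptor and feedback list and the 6 other pathway lists; filled points passed an adjusted p of 0.05. The median was -1.40 for the 10 receptors and feedback genes, -1.06 for ERK-induced genes and 0.04 for adaptors and cascade kinases, with all tested genes at -0.03.

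The comparison of I-BET151 with DMSO asked what the inhibitor changed in progenitors kept in the same EGF and bFGF. None of the 10 members passed the test with limma, where 0.210% of 16687 genes did (0.00599% higher and 0.204% lower); 2 members, FGFR2 and ERBB3, had an unadjusted p under 0.05, against 15.2% of all tested genes. The groups did not overlap for 5 members, with FGFR1, FGFR2, SPRY2 and DUSP6 higher and ERBB3 lower, against 28.7% and 18.0% of tested genes not overlapping in those directions. The null result depended on the model. The study, which used DESeq2, reported far more genes changed between I-BET151 and DMSO than the main limma fit called. A fit with a replicate block called FGFR1, SPRY2 and DUSP6 higher and ERBB3 lower, with 1477 genes higher and 1712 lower in all. Replicate numbers were not stated to pair the libraries, so that fit is an alternative only.

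ERBB3 had the largest difference of all 10, at 96.0 TPM with DMSO and 38.7 TPM with I-BET151, a log2 fold change of -1.28 (95% interval -2.06 to -0.50, adjusted p = 0.156). FGFR2 was higher by 1.09 (0.13 to 2.06, adjusted p = 0.276) and FGFR1 by 1.25 (-0.35 to 2.84, adjusted p = 0.422). DUSP6 had a log2 fold change of 0.91 (-0.09 to 1.91, adjusted p = 0.365) and SPRY2 of 0.71 (-0.06 to 1.49, adjusted p = 0.361). Intervals this wide leave a more than 2-fold difference possible for all 10 genes.

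For the other 5 members the groups overlapped and the intervals held 0. FGFR4, at 0.59, had an interval of -1.53 to 2.71, and SPRY4, at -0.37, one of -2.17 to 1.44. ERBB2 was at -0.21 (-2.10 to 1.68), FGFR3 at 0.30 (-0.85 to 1.46) and EGFR at 0.20 (-0.75 to 1.15). Over the 4 fits with 1 library fewer, FGFR1 ranged from 0.57 to 1.93, the lowest without I-BET151 replicate 1, and it passed without I-BET151 replicate 2 (adjusted p = 0.0407), with 1 library then assumed to vary like the others. DUSP6 ranged from 0.60 to 1.22. With all 10 replicated libraries fitted together, FGFR2 (adjusted p = 0.0323) and ERBB3 (adjusted p = 0.00283) passed.

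Other readings moved with this comparison. The sum of 5 liver or gut epithelium markers was 7530 and 9221 TPM with DMSO and between 1076 and 2366 TPM with I-BET151, and the sum of 5 pancreatic progenitor markers 291 to 374 TPM and 612 to 1088 TPM. Ribosomal protein genes took 20.4% and 27.9% of listed TPM with DMSO and 16.8% and 27.8% with I-BET151. Their part in the values of the members was not tested. None of the 68 tested genes of the 6 other pathway lists passed, where 0.210% of all tested genes did. Of the 68 genes, 8 had an unadjusted p under 0.05, against 15.2% of all tested genes. MAPK3 went from 123 and 77.7 TPM to 16.0 and 14.4 TPM (log2 fold change -2.61, adjusted p = 0.0711), and AREG from 79.9 and 256 TPM to 5.90 and 64.7 TPM (adjusted p = 0.364).

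**Figure D5:**
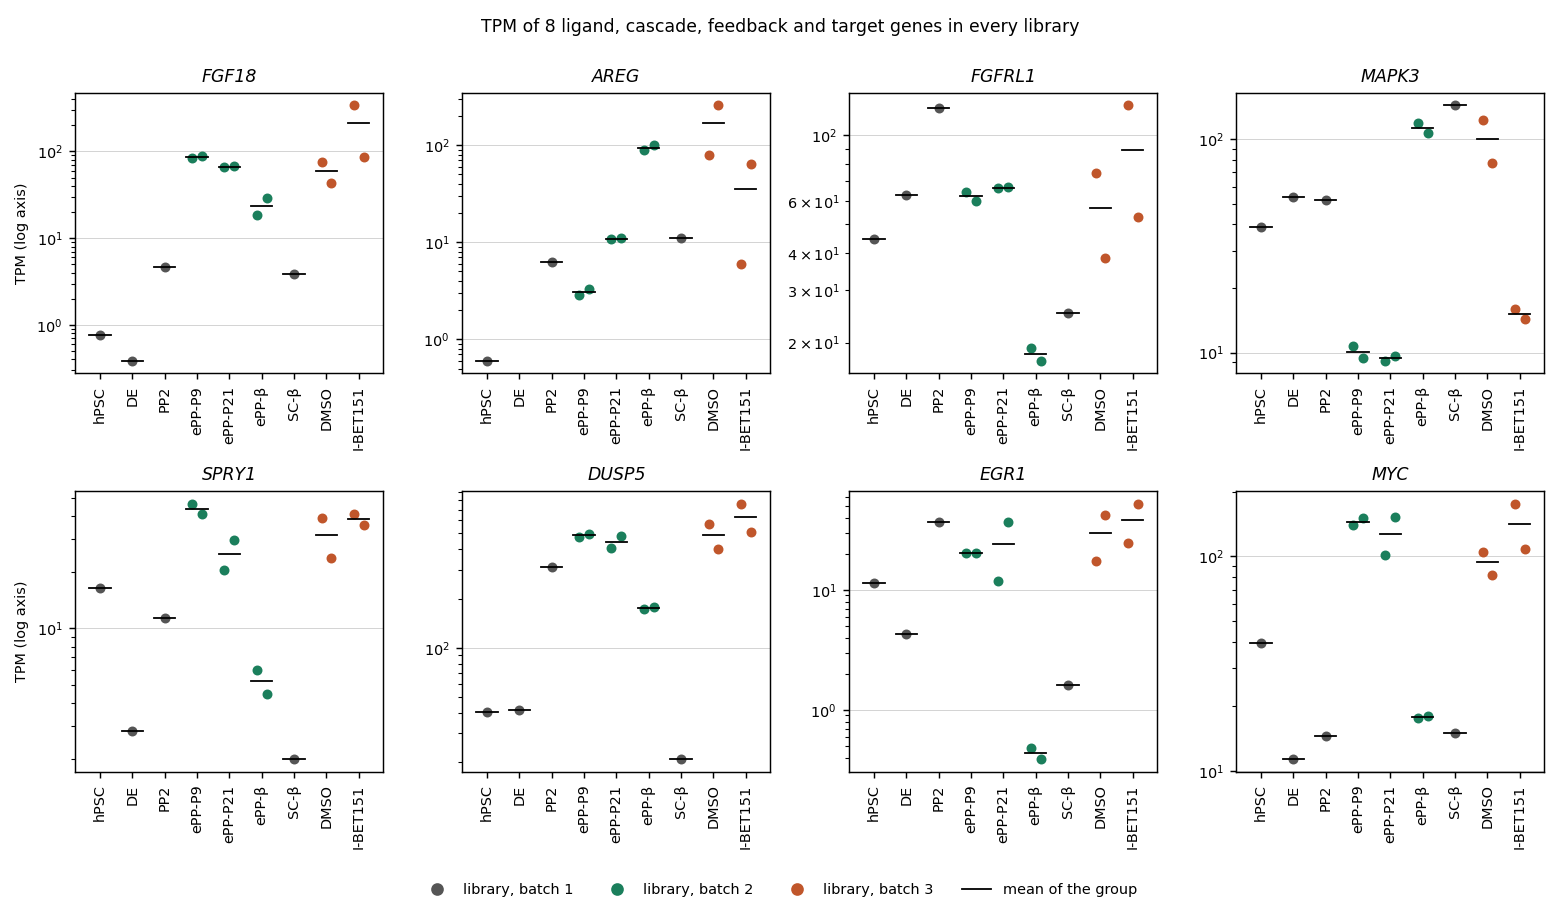
TPM (log axis, a different range in each panel) of 8 ligand, coreceptor, cascade, feedback and target genes in each library, by group, with the batch in color and a bar at the group mean; AREG was listed at 0 in DE and has no point there. MAPK3 is at 16.0 TPM or less in the ePP and I-BET151 libraries and at 39.0 TPM or more elsewhere, and SPRY1 and EGR1 are lowest of batch 2 in ePP-β.

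Between passages 9 and 21 of ePP, FGFR3 alone among the 10 members passed the test, where 1.95% of 15822 genes did (1.82% or 288 genes higher and 0.133% or 21 genes lower). Its level went from 77.2 and 86.9 TPM to 163 and 157 TPM, a log2 fold change of 0.96 ± 0.09 (adjusted p = 0.0319). No member passed with the fold limit as well, where 1.07% of genes were higher and 0.0569% lower, and 3 members had an unadjusted p under 0.05 (23.0% of genes). The median of all tested genes was 0.13 here, which leaves 0.83 for FGFR3 relative to it. The direction was the same in all settings tried, but the call was lost without ePP-P21 replicate 1 (adjusted p = 0.105), without ePP-P21 replicate 2 (0.142), with median centring (0.0648), with quantile normalization (0.0538), with no intensity trend (0.0779), with no filter (0.203) and with all 10 replicated libraries (0.506). Quantile normalization called 12 genes higher and 4 lower in all, and median centring none, with 4176 genes then at an unadjusted p under 0.05.

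The feedback genes showed no difference between passages that the fit could call. SPRY2 had a log2 fold change of -0.21 (95% interval -0.60 to 0.18), SPRY4 of -0.19 (-0.62 to 0.25) and DUSP6 of -0.15 (-0.59 to 0.28). In each of them the 2 ePP-P21 libraries differed 1.38-fold to 1.44-fold, and the passages overlapped. FGFR4 was higher by 0.29 (0.12 to 0.46, adjusted p = 0.0949) and FGFR2 by 0.36 (0.06 to 0.66, adjusted p = 0.162), both with groups that did not overlap, as for 41.3% of tested genes in that direction. With median centring they were higher by 0.086 and 0.15. The remaining 4 members lay between -0.15 and 0.11.

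Of the pathway lists, 2 genes passed between passages, where 1.95% of all tested genes did (1.82% higher). They were 1 of 5 tested EGF family ligands and 1 of 4 tested other receptors and coreceptors. None passed of the 6 FGF family genes, 18 adaptors and cascade kinases, 17 other feedback inhibitors and 15 ERK-induced genes tested. AREG was at 2.89 and 3.27 TPM at passage 9 and 10.7 and 10.9 TPM at passage 21 (log2 fold change 1.54, adjusted p = 0.0359), and GPC3 at 184 and 203 TPM and 302 and 306 TPM (0.65, adjusted p = 0.0379). Both calls were lost without either ePP-P21 library, and that of GPC3 also without ePP-P9 replicate 1 (adjusted p up to 0.145). Both were also lost in 6 of 10 other fits, among them no filter, quantile normalization, median centring and all 10 replicated libraries (adjusted p up to 0.804 for AREG and 0.35 for GPC3). SPRY1, from 46.3 and 41.0 TPM to 20.6 and 29.6 TPM, did not pass (adjusted p = 0.0918).

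Differences between batches were not tested, since batch and group cannot be told apart in them. From DE to PP2, within batch 1, EGFR went from 0.128 to 10.9 TPM, ERBB3 from 3.69 to 60.2 TPM, FGFR2 from 6.16 to 38.4 TPM and FGFR4 from 35.8 to 174 TPM, all without replicates. Between PP2 and ePP, of different batches, SPRY2 was at 101 TPM and a mean of 232 TPM and DUSP6 at 81.8 and 244 TPM, while FGFR1 was at 66.2 and 23.5 TPM. Both β-like groups, also of different batches, stood at 4.75 and 22.7 TPM for SPRY2 and 4.5 and 13.4 TPM for DUSP6, SC-β first.

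The genes whose 9 group means were most like those of a member were picked from 11849 protein-coding genes by the highest Pearson r of log2(TPM + 1), so that high values follow from the choice. They were PSMD3 for FGFR1 (r = 0.987), STRADA for FGFR2 (0.953), CPXM1 for FGFR3 (0.973) and SLIT2 for FGFR4 (0.976). For the EGF receptor family they were DPY19L4 for EGFR (0.975), CDT1 for ERBB2 (0.967) and PRSS23 for ERBB3 (0.97). By Spearman's rho DPY19L4 ranked 346 (rho = 0.75) and PRSS23 ranked 113 (rho = 0.867), so these choices depend on the measure. The feedback genes had RAD54B for SPRY2 (0.978), ARHGAP11A for SPRY4 (0.99) and HDAC3 for DUSP6 (0.978). The second choices were RBM38, DIS3L2, CEACAM19, PKDCC, TBC1D8, IQGAP3, POU2AF3, RTKN2, NUF2 and ERLIN2, in the order of the members.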

How the data were processed

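RNA-seq of 14 libraries was analysed. Per the authors' methods, libraries made with a kit that does not mark strand were sequenced as read pairs, aligned to GRCh38 with HISAT2 2.1.0 and quantified with StringTie, and the deposited TPM values were summed by gene; the annotation release is not given in the sources used here. TPM keeps no read depth, so no counting interval is given. Of 60624 Ensembl identifiers, 60370 matched GENCODE v44, which supplied symbols and overlaps. All 37 mitochondrial genes were listed at 0 in every library.

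Here, log2(TPM + 1) of genes that reached 1 TPM in 2 or more libraries of a comparison was fitted with limma 3.58.1 in R 4.3.3 with an intensity trend, for ePP-β against the mean of both ePP passages, I-BET151 against DMSO, and ePP-P21 against ePP-P9, using only the libraries compared. Benjamini-Hochberg adjusted p-values over all tested genes under 0.05 were called. The fit was also run on simulated data with large known changes, less noise than the batch 3 replicates and no shared replicate shift. That run checks the code and says nothing about power at the spread seen here. Batch 1 had no replicates and was described without a test.

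Members and pathway lists were chosen with earlier results of these data known. Beside the members, up to 4 genes per list and direction were named by size of change if they were called, did not overlap between groups and averaged 5 TPM or more on the higher side; exceptions are marked, and some genes of the cascade list are counted but not reported here by name. Alternatives were other pseudocounts, filters, scalings, a replicate block, no trend, all 10 replicated libraries, and leaving out each library. Those using a single ePP passage as the reference were added after seeing the data.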

Additional observations from a re-analysis of the deposited data

Results flagged for a closer look

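ERBB3 moved in opposite directions in the steps from progenitor to β-like cell. From ePP to ePP-β it was higher by 0.81 on the log2(TPM + 1) scale, in both ePP-β libraries against all 4 ePP libraries, and from PP2 to SC-β the log2 difference was -0.82, with 1 library each. The difference between the 2 steps was not tested, since they lie in different batches and the second has no replicates. The ePP medium held I-BET151, unlike the media of PP2 and the β-like cells. In batch 3 ERBB3 averaged 96.0 TPM with DMSO and 38.7 TPM with I-BET151, a difference that was not called (adjusted p = 0.156 with limma). ENSG00000257411, which overlaps ERBB3 on the same strand, was lower by 0.97 in ePP-β than in ePP. The part of either in the ERBB3 values was not tested.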

How the results depend on the processing

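Between ePP-β and ePP, all 10 members kept their direction in the 18 other fits, and the calls of FGFR1 and ERBB2 were lost in 1. With the fold limit as well, 0 members were called higher, and 3237 genes were higher and 1783 lower, or 2592 and 2866 with quantile normalization. All 10 replicated libraries fitted together gave 2935 lower genes, and leaving out each library gave 2833 to 5222 higher. The median of all genes was -0.03, or -0.19 with quantile normalization and -0.17 with median centring.

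For I-BET151 against DMSO, 1 gene was called higher and 34 lower in all. With log2(TPM + 0.1), log2(TPM + 0.01) or no filter there were 0 and 0. Quantile normalization gave 3 higher and 135 lower, median centring 119 lower, leaving out ribosomal protein genes 77 lower, and all 10 libraries 901 higher and 1322 lower with 1 member each way. Leaving out each library gave 7 to 283 higher, 100 to 751 lower and 0 to 1 members higher. The directions then reversed for some members, with ranges of -0.10 to 0.71 for FGFR3, -0.45 to 1.63 for FGFR4, -0.15 to 0.56 for EGFR, -1.16 to 0.74 for ERBB2 and -1.15 to 0.42 for SPRY4.

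Replicate numbers were not stated to pair the libraries. Same-numbered DMSO and I-BET151 libraries deviated together (r = 0.675 across genes, 2 pairs), and a replicate block gave 1477 higher and 1712 lower genes with 3 members higher (FGFR1, SPRY2 and DUSP6) and 1 lower (ERBB3). Pairs of ePP passages did not (r = -0.00933), and the block gave 89 higher and 7 lower genes there.

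Between passages, members called higher were 0 with no filter, quantile normalization, median centring, no trend, all 10 libraries or the fold limit, and 0 to 1 when each library was left out. Genes called higher and lower in all were 0 and 0 with no filter or median centring, 12 and 4 with quantile normalization, 0 and 1 with no trend or all 10 libraries, 169 and 9 with the fold limit, and 0 to 621 and 0 to 45 when each library was left out. The median of all genes, 0.13, became -0.03 with quantile normalization and -0.07 with median centring, where EGFR was at -0.078 and -0.10 and ERBB3 at -0.10 and -0.14. Leave-one-out ranges that crossed 0 were -0.19 to 0.11 for FGFR1, -0.35 to 0.046 for ERBB2, -0.0055 to 0.13 for ERBB3, -0.44 to 0.020 for SPRY2, -0.41 to 0.035 for SPRY4 and -0.41 to 0.11 for DUSP6. Where a call or direction changed, the cause was not tested. Depth is unknown, so its limit on low genes could not be given.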

Other observations

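Several ligands marked single stages of batch 1, each in 1 library. FGF17 was at 909 TPM in DE and at most 1.72 TPM in the other 13 libraries, and FGF8 was at 48.5 TPM in DE and 7.89 TPM in hPSC, against at most 2.77 TPM elsewhere. FGF19 was at 24.6 TPM in hPSC, with 5.71 TPM in DMSO replicate 1 next. FGF2 was highest in hPSC, at 33.2 TPM. FGF7, a mesenchymal ligand of FGFR2, was at 10.1 TPM in SC-β and at most 0.0627 TPM elsewhere, and SC-β was also the library with the highest fibroblast or mesenchyme marker sum, at 2710 TPM. The link between them was not tested.

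Of the coreceptors and feedback genes, GPC4 was at 97.9 TPM in hPSC and 177 TPM in DE and at most 7.64 TPM elsewhere. IL17RD, an inhibitor of FGF signaling, was at 38.8 and 30.2 TPM in the same libraries and at most 9.67 TPM elsewhere. IER3, an immediate early gene, reached 701 TPM in DE, the only library above 189 TPM. These genes were picked after their values were seen, and no test was made.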
